A study of Mus musculus with 12 samples.

Results

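Survivin, the product of Birc5, was examined together with 7 genes whose products make up or assist the chromosomal passenger complex, namely Cdca8, Incenp, Aurkb, Aurkc, Sgol1, Sgol2 and Rcc2. Membership was set by gene name in the array files, and these 8 genes are 8 of 34844 gene names on the array. They were covered by 14 of 55681 probes, of which 13 were among the 39138 kept by a filter that asked for at least 1 group in which all arrays read it well above background. The left-out probe was the second probe of Aurkc. All 8 genes therefore kept at least 1 probe, and for genes with several the probe of highest mean level stands for the gene.

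RNA from mouse liver was hybridised to 12 single-colour Agilent arrays, 3 for each combination of tissue and genotype. All mice were males of the mixed strain 129/SV/B6. They had received the liver carcinogen N,Nitrosodiethylamine (DEN) at 50 mg/kg when 2 weeks old, and poly(IC), which induces the interferon-responsive Mx promoter, 8 months later. Mx-liver and Mx-tumor arrays held non-cancerous liver and hepatocellular carcinoma (HCC) from animals without the Mx-Cre transgene, in which survivin is wild type. Mx+liver and Mx+tumor arrays held the same tissues from animals with Mx-Cre, in which survivin is deleted, and tissue of every group was taken 1 week after poly(IC). All 4 groups also share irradiation and a bone marrow transplant 2 months before. The Mx promoter can drive Cre in hepatocytes and in blood cells among others, so the deletion need not be limited to 1 cell type. The labels give neither the deleted exons nor the genotype of the donor marrow, so whether blood cells carry the deletion is not known. They do not name the animals either, so p-values measure only the spread between these arrays, which may be technical.

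The chromosomal passenger complex is a mitotic machine that corrects faulty attachments of chromosomes to the spindle and later moves to the spindle midzone to guide cytokinesis. Survivin and borealin (Cdca8) bind the end of the scaffold Incenp and bring the complex to the inner centromere, while the kinase Aurkb, or Aurkc in germ cells, binds the other end of Incenp and is activated by it. Shugoshins (Sgol1 and Sgol2) protect centromeric cohesion and help recruit the complex, Rcc2 associates with it at centromeres and the midzone, and survivin is also known as an inhibitor of apoptosis that most resting hepatocytes lack and regenerating or tumour hepatocytes express.

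The probe sequences below are shown because Birc5 was read at 3 places along the gene and because Cdca8 was the partner with the highest Pearson correlation with it. On mm9 the upstream Birc5 probe lies at chr11:117711112-117711171 and the middle probe at chr11:117714057-117714116, 2945 bases further along the + strand. The downstream probe, at chr11:117716978-117717037, starts 5866 bases after the upstream one and stands for the gene. The array annotation lists the upstream probe under a different Birc5 transcript than the middle and downstream probes. Whether any of them reads only 1 transcript was not determined. The Cdca8 probe lies at chr4:124599245-124599304 on the - strand. The probes that stand for the other partners lie at chr19:9946893-9946952 (Incenp, -), chr11:68865105-68865164 (Aurkb, +), chr7:6955707-6955766 (Aurkc, +), chr17:53815437-53815496 (Sgol1, -), chr1:58081712-58081771 (Sgol2, +) and chr4:140279076-140279135 (Rcc2, +). Which exon or UTR each probe falls in was not determined. Capitals in the upstream Birc5 probe begin and end with a cysteine codon, the pair of the zinc-binding BIR fold by which survivin is classed among the inhibitor-of-apoptosis proteins.
Birc5 upstream probe: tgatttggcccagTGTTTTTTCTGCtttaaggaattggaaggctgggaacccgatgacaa
Birc5 middle probe: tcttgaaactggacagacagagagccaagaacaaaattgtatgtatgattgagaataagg
Cdca8 probe: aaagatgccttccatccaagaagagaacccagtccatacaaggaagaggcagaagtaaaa

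Many mitotic genes are switched on together in dividing cells through CCAAT boxes, bound by NF-Y, and the cell cycle genes homology region, which binds the DREAM and MuvB complexes. The promoters of Birc5 and Cdca8 are shown because Cdca8 had the highest Pearson correlation with Birc5 among the partners. The sequences are from RefSeq on GRCm38, run from 250 bases before the transcription start to 30 after it, and have in capitals, on either strand, the homology region as TTTGAA or as TTCGAA and the box as CCAAT, which on the other strand reads ATTGG. Birc5 lies at chr11:117848987-117849266 on the + strand and Cdca8 at chr4:124936888-124937167 on the - strand.
Birc5 promoter: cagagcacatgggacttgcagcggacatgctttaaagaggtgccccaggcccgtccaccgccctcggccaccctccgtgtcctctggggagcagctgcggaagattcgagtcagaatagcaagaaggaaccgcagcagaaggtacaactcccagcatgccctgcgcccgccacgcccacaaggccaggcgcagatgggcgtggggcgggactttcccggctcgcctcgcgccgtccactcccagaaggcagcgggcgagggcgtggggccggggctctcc
Cdca8 promoter: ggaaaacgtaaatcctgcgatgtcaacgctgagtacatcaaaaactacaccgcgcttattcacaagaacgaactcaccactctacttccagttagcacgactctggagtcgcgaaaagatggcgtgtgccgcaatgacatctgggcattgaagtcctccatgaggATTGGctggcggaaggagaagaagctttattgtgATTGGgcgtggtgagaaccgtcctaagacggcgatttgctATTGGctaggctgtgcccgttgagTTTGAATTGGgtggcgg
The Birc5 window held none of these motifs. The Cdca8 window held CCAAT with first bases at -85, -51, -11 and +19 and TTTGAA at +14, the last of which overlaps the CCAAT at +19. In promoter windows reaching from 250 bases before to 50 after the start, TTTGAA was present in 17.9%, TTCGAA in 1.56% and CCAAT in 37.4% of 32851 mouse promoters. The promoter table held 6 of the 8 genes, Aurkb and Incenp being the others. Sgol1 had TTCGAA at +28 and CCAAT at +3. Aurkc and both promoters of Sgol2 had CCAAT, and Rcc2 had none of the motifs. A match to these letters is not evidence of binding.

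The arrays lay on 2 slides, with replicate 1 of each group on slide 1 and replicates 2 and 3 on slide 2. Levels are log2 processed signals minus the 75th percentile of the same array, so a level of 0 equals that percentile, and probes are not compared with each other. The percentile signal was 1131 to 1766 on slide 1 and 3344 to 3906 on slide 2. On 11 arrays 69.2% to 83.4% of spots were well above background, against 49.0% on Mx-liver replicate 1. In the deposited value table the columns named Mx+liver replicate 1 and Mx-tumor replicate 1 correlate less with the scanner file of that name (r = 0.964 and 0.967) than with the file of the other (r = 0.995 and 1.00). Results are therefore given for the 12 arrays as labelled, with these arrays exchanged, and for the 8 arrays of slide 2, which hold neither. With 12 arrays as labelled, limma with Benjamini-Hochberg adjustment called 0 of 39138 probes in each contrast, the background being 0.0% called, and 4.28% of probes had an unadjusted p under 0.05 for deletion over both tissues. On slide 2 the same contrast called 1298 of 39133 probes, or 3.32%.

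Birc5 fell with deletion on slide 2 at the upstream and middle probes, 4.25-fold and 3.06-fold over both tissues, and it was well above background on every array. At the upstream probe the slide 2 levels were -1.21 and -1.03 in Mx-liver and -2.54 and -3.33 in Mx+liver. In HCC they were -0.85 and 0.09 in Mx-tumor and -2.56 and -2.93 in Mx+tumor. Every Mx+ array of slide 2 lay below every Mx- array at this probe. On slide 1 the levels were -0.23 in Mx-liver, -0.33 in Mx+liver, -2.03 in Mx-tumor and -2.68 in Mx+tumor, so the array labelled Mx+liver stood near the Mx-liver array and the one labelled Mx-tumor near the Mx+tumor array.

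The middle probe gave 0.25 and 0.29 in Mx-liver, -0.84 and -1.49 in Mx+liver, 0.57 and 1.41 in Mx-tumor and -0.61 and -0.99 in Mx+tumor on slide 2. The downstream probe gave 0.51 and 0.76 in Mx-liver, -0.10 and -1.07 in Mx+liver, 0.82 and 1.76 in Mx-tumor and 0.17 and -0.08 in Mx+tumor. Genotypes were thus apart at all 3 probes on slide 2. The middle probe read 0.76, 0.70, -0.57 and -0.24 on slide 1 in Mx-liver, Mx+liver, Mx-tumor and Mx+tumor. As labelled, its Mx+tumor array of slide 1 therefore lay above the Mx-tumor array. On slide 1 the downstream levels were 2.85, 2.42, 0.80 and 0.06 in Mx-liver, Mx+liver, Mx-tumor and Mx+tumor. The liver arrays of slide 1 were the highest of all at this probe.

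**Figure D1:**
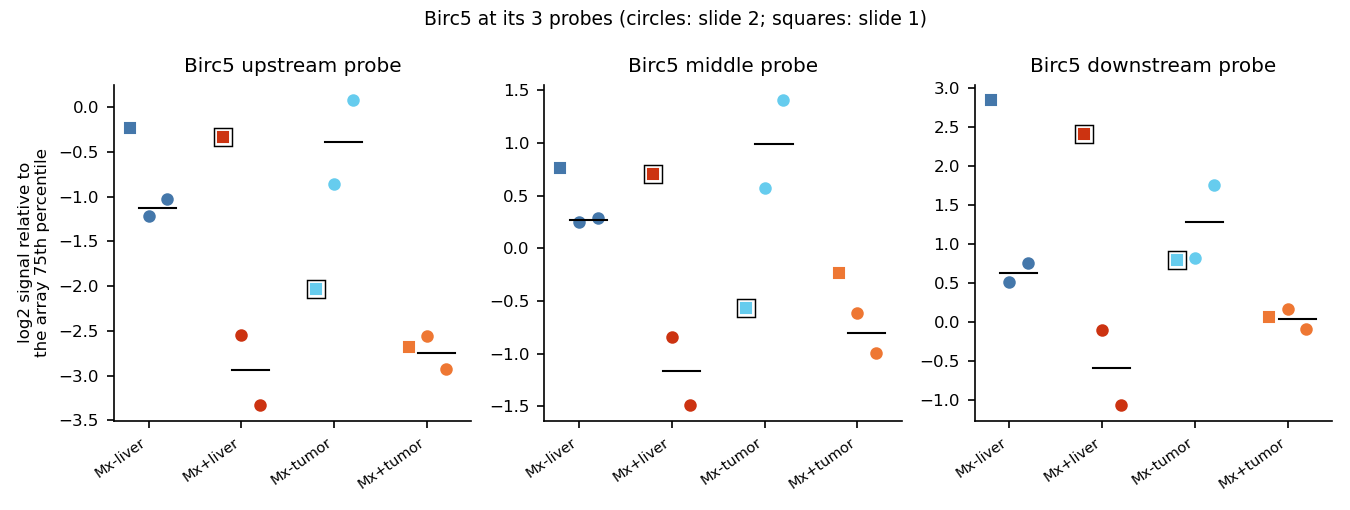
Level (log2 signal relative to the array 75th percentile) of Birc5 at its 3 probes in the 4 groups, circles for slide 2 and squares for slide 1, with boxes around the 2 arrays in doubt and bars at slide 2 means. On slide 2 the Mx+ arrays lie between -3.33 and -2.54 at the upstream probe, below all Mx- arrays.

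Over both tissues the change on slide 2 was -2.09 (SE 0.27, limma adjusted p = 0.032) at the upstream probe, -1.61 (SE 0.24, adjusted p = 0.037) at the middle one and -1.23 (SE 0.29, adjusted p = 0.076) at the downstream one. With 12 arrays as labelled the changes were -1.52 (SE 0.51), -1.03 (SE 0.42) and -1.02 (SE 0.58), none called. With the arrays exchanged they were -2.08 (SE 0.29), -1.45 (SE 0.25) and -1.56 (SE 0.47), again none called, as against 0.00511% of probes. With slide as a block the call changed for the exchanged arrays, where the upstream (adjusted p = 0.042) and middle (0.048) probes passed and the downstream one did not (0.078). Without the 2 arrays in doubt the block gave 0.042, 0.044 and 0.094, and as labelled it gave 0.23, 0.28 and 0.34. An exact permutation of genotype within tissue and slide gave p = 0.0139 at the upstream and downstream probes and 0.0417 at the middle probe as labelled, where 0.0139 is the smallest p its arrangements allow. Exchanged, all 3 probes reached that smallest p. Whether the change differs between probes was not tested. In bulk tissue a smaller share of cells that express a gene and less RNA in each cannot be told apart.

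Cdca8 (borealin), which binds survivin directly, was 1.73-fold lower in Mx+ arrays of slide 2 over both tissues at the probe that stands for it, the largest such difference among the partners in the mean of HCC and liver. In liver alone its difference of -0.89 was smaller than those of Aurkb (-1.04) and Sgol2 (-0.99). Its slide 2 levels were -0.37 and -0.16 in Mx-liver, -1.03 and -1.28 in Mx+liver, -0.35 and 0.38 in Mx-tumor and -0.74 and -0.62 in Mx+tumor. Mx+ arrays lay below Mx- arrays in each tissue. On slide 1 the levels were 1.14, 0.87, 0.36 and 0.12 in Mx-liver, Mx+liver, Mx-tumor and Mx+tumor. The upstream and downstream Birc5 probes had the same order on those arrays, and the middle one did not. The change over both tissues was -0.79 (SE 0.18, adjusted p = 0.071) on slide 2, -0.61 (SE 0.42) as labelled and -0.78 (SE 0.38) with the arrays exchanged, none of them called. The exact permutation test gave p = 0.0139, the smallest it allows, as labelled and exchanged. How many of all probes reach that p was not counted. The second Cdca8 probe, at chr4:124595809-124595868, had a smaller difference of -0.39 (SE 0.22, unadjusted p = 0.12) on slide 2, where its genotypes overlapped in both tissues. Its exact permutation p was 0.181 as labelled and 0.0694 exchanged. On slide 1 it read -0.66, -0.60, -0.98 and -1.11 in Mx-liver, Mx+liver, Mx-tumor and Mx+tumor, with Mx+liver the highest.

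Incenp, the scaffold, was not lower in Mx+ arrays. On slide 2 its levels were -0.99 and -0.61 in Mx-liver, -0.77 and -0.89 in Mx+liver, -0.87 and -0.69 in Mx-tumor and -0.14 and -0.54 in Mx+tumor. Genotypes overlapped in liver, and in HCC both Mx+ arrays were the higher ones. The change over both tissues was 0.21 (SE 0.14, adjusted p = 0.41, 95% confidence interval -0.15 to 0.56) on slide 2 and 0.14 (SE 0.50) as labelled. On slide 1 Incenp lay between 0.79 and 1.06, above all arrays of slide 2. A second Incenp probe that shares 45 of its 60 bases (chr19:9946878-9946937 against chr19:9946893-9946952, - strand) lay instead between -2.90 and -1.83 on slide 1, below its slide 2 range of -1.04 to -0.24.

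Aurkb, the kinase of the complex in somatic cells, was weakly measured on slide 1. There it was well above background on Mx+tumor replicate 1 alone, at -1.98, and its readings of -3.82, -6.34 and -6.49 on Mx-liver, Mx+liver and Mx-tumor were not well above background. On slide 2 it read -3.03 and -2.80 in Mx-liver, -3.98 and -3.92 in Mx+liver, -2.68 and -2.31 in Mx-tumor and -3.24 and -2.61 in Mx+tumor. The genotypes were apart in liver and overlapped in HCC. The change over both tissues was -0.73 (SE 0.17, adjusted p = 0.076) on slide 2 and -0.16 (SE 0.71) with 12 arrays as labelled. In HCC alone it was 1.21 (SE 1.01) as labelled and -0.43 (SE 0.25) on slide 2, a sign that rests on the slide 1 arrays.

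Aurkc, the germ-cell counterpart of Aurkb, was dim but well above background on 11 of 12 arrays. On slide 2 it read -3.60 and -4.04 in Mx-liver, -4.35 and -4.87 in Mx+liver, -3.51 and -3.55 in Mx-tumor and -4.29 and -3.93 in Mx+tumor. Genotypes were apart in both tissues. The slide 1 readings were -4.65 (not well above background), -3.62, -4.17 and -4.22 in Mx-liver, Mx+liver, Mx-tumor and Mx+tumor. The change over both tissues was -0.69 (SE 0.17, adjusted p = 0.086) on slide 2, -0.48 (SE 0.23) with the arrays exchanged and -0.29 (SE 0.27) as labelled.

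The shugoshin genes, whose products guard cohesin at centromeres, also had lower readings in Mx+ arrays of slide 2. Sgol1 read -0.77 and -0.59 in Mx-liver, -1.28 and -1.22 in Mx+liver, -0.45 and -0.45 in Mx-tumor and -1.36 and -0.93 in Mx+tumor. Its change over both tissues was -0.63 (SE 0.12, adjusted p = 0.053) on slide 2, the nearest of the partners to the threshold, and -0.34 (SE 0.23) as labelled. On slide 1 it read -0.99, -1.30, -1.37 and -0.56 in Mx-liver, Mx+liver, Mx-tumor and Mx+tumor, so that the Mx+tumor array was the highest of the slide. Exchanging the arrays in doubt left the change at -0.36 (SE 0.22).

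Sgol2 read -4.45 and -3.86 in Mx-liver, -4.88 and -5.40 in Mx+liver, -4.10 and -3.73 in Mx-tumor and -4.35 and -4.49 in Mx+tumor on slide 2, the lowest of these being not well above background. Its change was -0.75 (SE 0.20, adjusted p = 0.090) on slide 2. On slide 1 it read -3.88 (not well above background), -3.26, -4.53 and -3.94 in Mx-liver, Mx+liver, Mx-tumor and Mx+tumor. It was the partner that moved most with the assignment of the arrays. The change was -0.30 (SE 0.35) as labelled, with an exact permutation p of 0.306, and -0.72 (SE 0.24) exchanged, with p = 0.0139.

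Rcc2, a guanine nucleotide exchange factor-like protein that joins the complex at centromeres and the midzone, had readings that overlapped between genotypes. On slide 2 all 8 levels lay between 1.15 and 1.56, and on slide 1 between 3.18 and 3.45. The change over both tissues was 0.01 (SE 0.14, adjusted p = 0.98, 95% confidence interval -0.33 to 0.34) on slide 2 and -0.04 (SE 0.55) as labelled. Its second probe lay between -0.01 and 0.76 on all arrays.

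**Figure D2:**
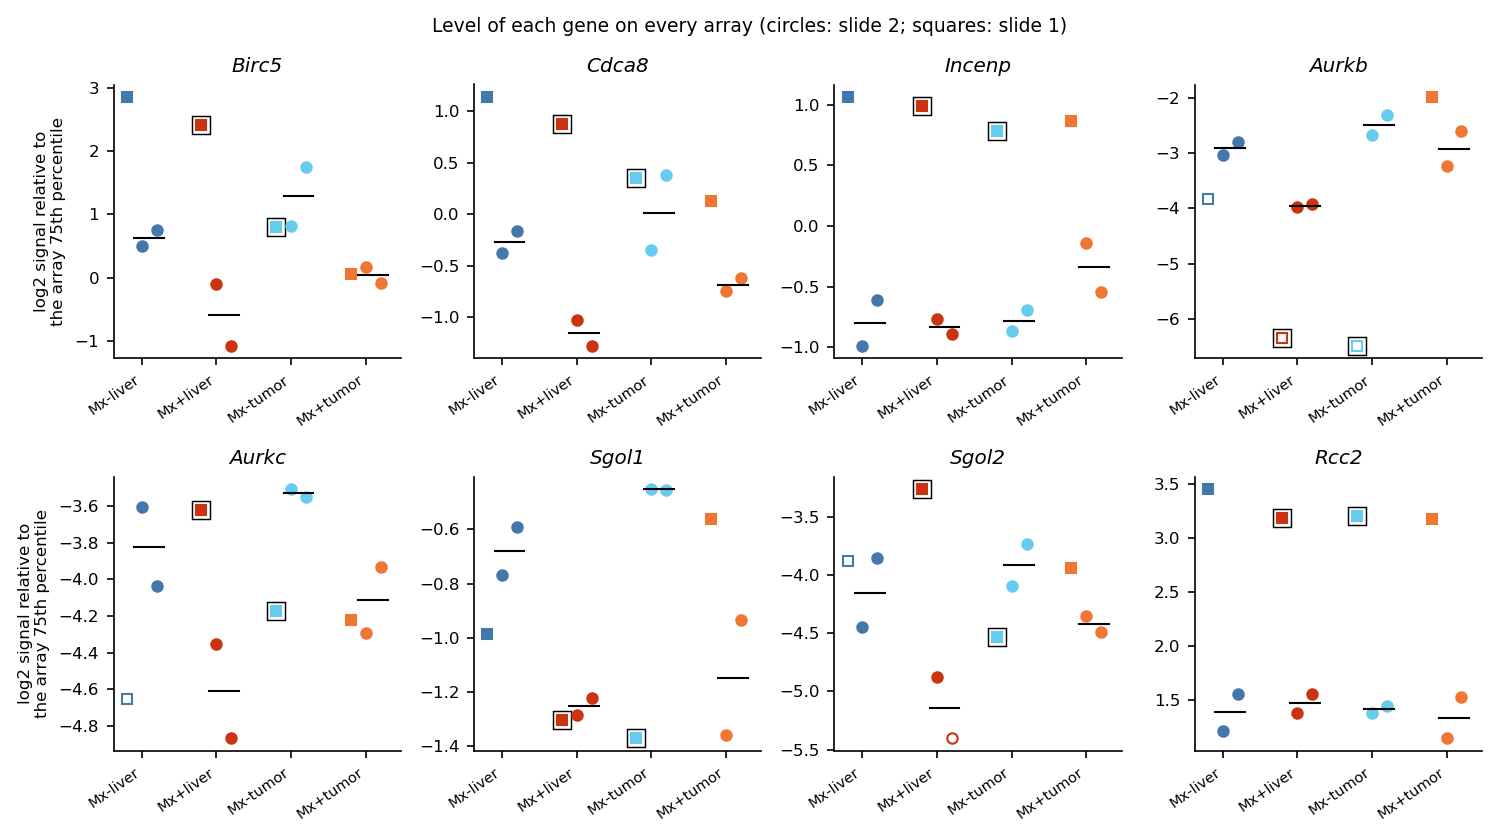
Level (log2 signal relative to the array 75th percentile) of each of the 8 genes on all 12 arrays by group, circles for slide 2, squares for slide 1, open symbols for readings not well above background, boxes around the 2 arrays in doubt and bars at slide 2 means. Mx+ circles lie below Mx- circles in both tissues for Birc5, Cdca8, Aurkc, Sgol1 and Sgol2, while Rcc2 circles all lie between 1.15 and 1.56. Only the probe that stands for each gene is drawn, and the genotypes overlap at the second Cdca8 probe.

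Counted together on slide 2 at the probes that stand for them, 5 of the 8 genes had both Mx+ arrays below both Mx- arrays in liver and again in HCC. They were Birc5, Cdca8, Aurkc, Sgol1 and Sgol2. Over all kept probes 13.9% did so, and of the 13 kept member probes 7 did. The second Cdca8 probe did not, its genotypes overlapping in both tissues. As labelled, with 3 arrays a group, 0 of 8 genes were apart in both tissues, against 0.672% of probes. In HCC 1 of 8, Birc5, was apart and lower as labelled, against 3.21% of probes, and in liver 2 of 8, Aurkb and Sgol1, against 3.29%, the Aurkb readings of replicate 1 being not well above background.

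By the fit on slide 2, 5 of the 7 partners were lower over both tissues at an unadjusted p under 0.05, against 11.2% of genes, and 0 of 7 were called after adjustment. The median change of the 7 partners was -0.69, beside 0.04 over all 26503 genes. As labelled 6 of 7 partners were lower, against 44.7% of 26507 genes, with a median of -0.29 beside 0.04. Of the partners 0 of 7 had an unadjusted p under 0.05, and 1.88% of probes were lower at that level. With the arrays exchanged the single partner at that level was Sgol2, against 2.37% of probes. In HCC alone on slide 2, Cdca8 and Sgol1 (2 of 7) were lower at that level, against 10.3% of probes. In liver Cdca8, Aurkb, Aurkc, Sgol1 and Sgol2 (5 of 7) were, against 7.09%. No member's deletion change differed between the tissues after adjustment, nor did any of the 39138 probes as labelled (0.0%).

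**Figure D3:**
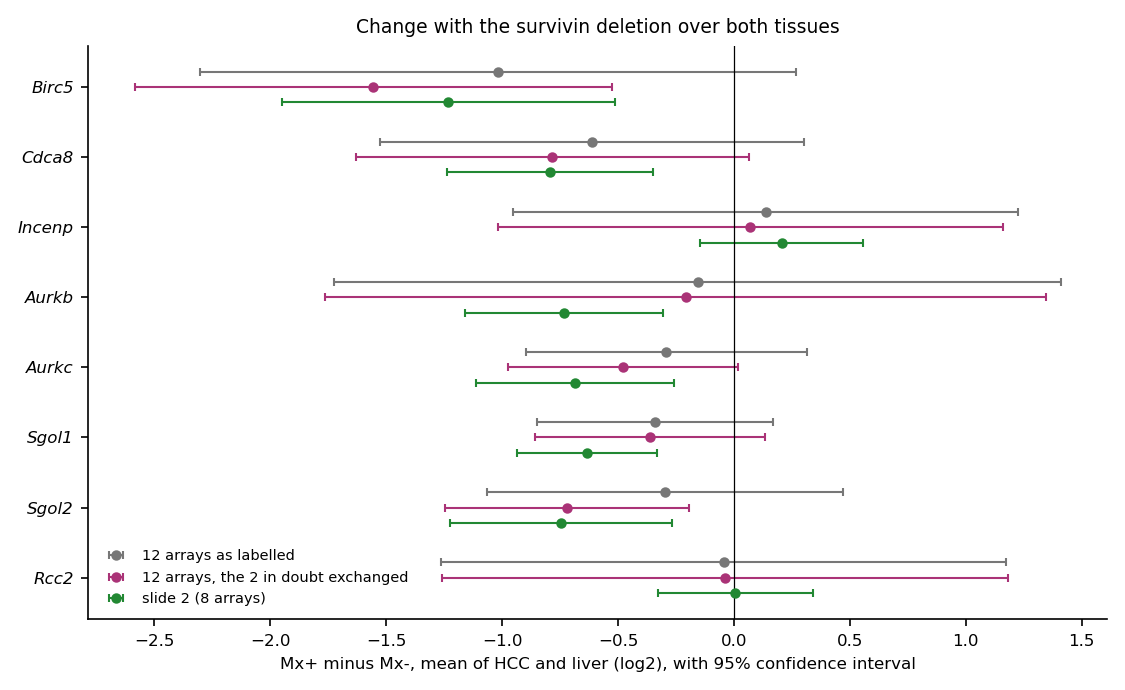
Change with deletion (Mx+ minus Mx-, mean of HCC and liver, log2) of the 8 genes with 95% confidence intervals from limma, for 12 arrays as labelled, with the 2 arrays in doubt exchanged, and for slide 2. Slide 2 intervals of Incenp and Rcc2 include 0 and those of the other 6 genes lie below it.

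Whether the partners changed by less than Birc5 was asked directly, by the difference between Birc5 (downstream probe) and each partner on every array. As labelled, Birc5 changed by 1.15 more than Incenp and by 0.97 more than Rcc2 on the log2 scale, the differences being -1.15 and -0.97 (exact permutation p = 0.0139 for each, n = 12 arrays). The difference was -0.72 for Sgol2 (exact p = 0.0278) and -0.41 for Cdca8 (exact p = 0.0417). It was -0.72 for Aurkc (exact p = 0.0556), -0.68 for Sgol1 (exact p = 0.0833) and -0.86 for Aurkb (exact p = 0.514), which do not pass 0.05. These p-values are two-sided and not adjusted over the 7 partners. On slide 2 the differences were -1.44 for Incenp, -1.24 for Rcc2 and -0.44 for Cdca8, where 36 arrangements allow no p under 0.0556. Incenp and Rcc2 reached that smallest p, while Cdca8 (exact p = 0.167) and Sgol2 (exact p = 0.111) lay well above it. As labelled, leaving out single arrays ended the pass for each of the 4 partners. For Cdca8 5 of 12 arrays did so, namely Mx-liver replicate 1, Mx+tumor replicate 1, Mx-tumor replicates 2 and 3 and Mx+liver replicate 3, with an exact p of up to 0.306. For Sgol2 3 arrays did, Mx-liver replicate 1 and Mx+liver replicates 2 and 3 (exact p up to 0.278), and for Rcc2 3, Mx+tumor replicate 1 and Mx-tumor replicates 2 and 3 (exact p up to 0.222). For Incenp 1 array did, Mx+tumor replicate 1 (exact p = 0.0972). With an array left out the genotypes no longer match over the slides, and the group means were not adjusted for slide. A slide shift that differs between Birc5 and the partner therefore enters these p-values. Slide 1 was higher than slide 2 by 1.19 for Birc5, 1.14 for Cdca8, 0.50 for Sgol2, 1.61 for Incenp and 1.85 for Rcc2. The part of that shift was not tested.

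Between tissues, members were not called in either genotype. With survivin intact, all 8 genes were higher in HCC than in liver on slide 2, where 18975 of 39136 probes were lower. Birc5 was higher by 0.66 (SE 0.42), and 0 of 8 had an unadjusted p under 0.05, against 7.43% of probes. Of all probes 0.0% were called in that contrast. As labelled the Birc5 difference was -0.25 (SE 0.83), the opposite sign. With survivin deleted, Aurkb was 1.03 above liver in HCC (SE 0.25, adjusted p = 0.51) and Sgol2 by 0.72 (SE 0.28, adjusted p = 0.52) on slide 2, while 0.0% of probes were called. Aurkb had passed the filter on dim probes only through Mx+tumor, where it is the higher side of this difference, although every slide 2 array read it well above background. Sgol2 had passed it only through the HCC groups, the higher side on slide 2 with survivin intact and with it deleted. Its Mx+liver replicate 3 reading was not well above background. With survivin deleted, Birc5 itself differed by 0.63 (SE 0.42) on slide 2 and by -0.37 (SE 0.83) as labelled.

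Whether partners follow Birc5 (downstream probe) from array to array was measured over the 8 arrays of slide 2, since levels of several genes differ between slides. At the probes that stand for the genes Cdca8 had the highest r of the partners, with r = 0.96 and rho = 0.95 (exact permutation p = 5.95e-04 and 0.00114, Benjamini-Hochberg 0.154 and 0.144 over 26449 genes). Without the 2 arrays farthest from the Birc5 median, Mx-tumor replicate 3 and Mx+liver replicate 3, r was 0.88. The second Cdca8 probe had r = 0.91 and rho = 0.76 (exact p = 0.00729 and 0.0368, not in the adjusted family), and its r fell to 0.42 (exact p = 0.407) without these arrays, so that at this probe the relation rests on them. Sgol2 had r = 0.93 and rho = 0.95 (exact p = 5.21e-04 and 0.00114, adjusted 0.154 and 0.144), and r = 0.84 without these arrays.

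Aurkc had r = 0.84 and rho = 0.86 (exact p = 0.0100 and 0.0107, adjusted 0.236 and 0.223), Aurkb r = 0.80 and rho = 0.74 (exact p = 0.0137 and 0.0458, adjusted 0.252 and 0.274) and Sgol1 r = 0.79 and rho = 0.81 (exact p = 0.0139 and 0.0218, adjusted 0.253 and 0.242). Without the farthest arrays r was 0.65 for Aurkc, 0.52 for Aurkb and 0.84 for Sgol1, with exact p = 0.189, 0.304 and 0.0542. Incenp had r = 0.04 and rho = 0.07 (exact p = 0.924 and 0.882, adjusted 0.972 and 0.947), and Rcc2 r = -0.16 and rho = -0.14 (exact p = 0.710 and 0.752, adjusted 0.882 and 0.879). The second Rcc2 probe had r = 0.58 and rho = 0.48 (exact p = 0.129 and 0.243), higher than 85.9% of genes, so the probes of Rcc2 disagree in sign. Of all genes, 13.8% reached an unadjusted p under 0.05 and 0 passed adjustment, with a median r of -0.04.

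The Mx+ and Mx- arrays do not overlap in Birc5, so these correlations hold the genotype difference as well as the spread within groups. Over deviations from the 4 group means on slide 2, r was 0.84 for Cdca8 and 0.84 for Sgol2. It was 0.58 for Incenp, 0.24 for Aurkc, 0.18 for Aurkb, -0.16 for Rcc2 and -0.19 for Sgol1. With 2 arrays a group the deviations of a group mirror each other, and no test is given. Over all 12 arrays with each slide centred, r was 0.94 for Cdca8, 0.76 for Sgol2, 0.49 for Aurkc, 0.29 for Sgol1, 0.21 for Incenp, 0.14 for Rcc2 and -0.01 for Aurkb.

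**Figure D4:**
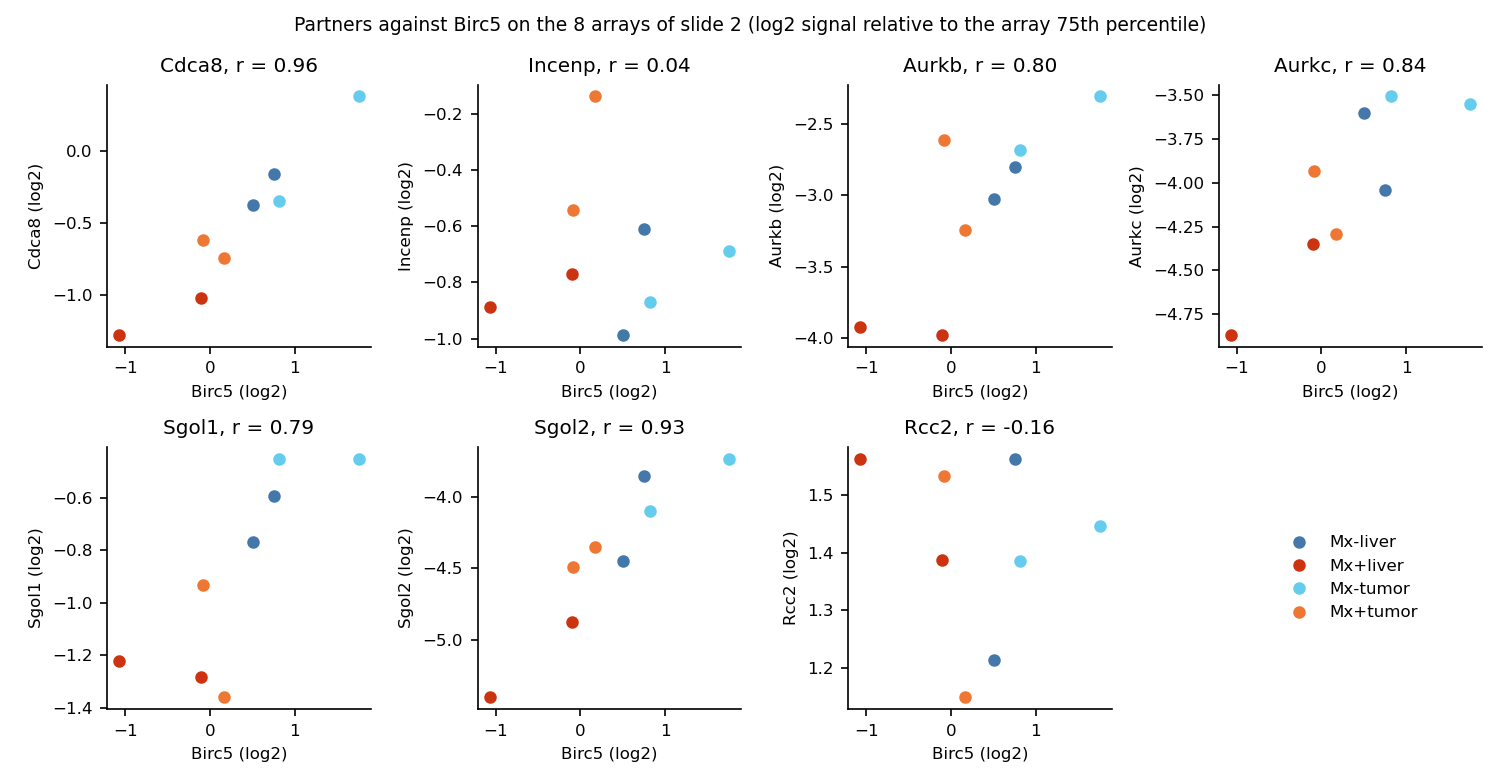
Level of each partner against Birc5 (both log2 signal relative to the array 75th percentile) on the 8 arrays of slide 2, coloured by group, with Pearson's r above each panel. Each panel shows the probe that stands for the gene, with r = 0.96 for Cdca8, 0.93 for Sgol2, 0.04 for Incenp and -0.16 for Rcc2, and the second probes of Cdca8 (r = 0.91) and Rcc2 (r = 0.58) are not drawn.

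Among 14027 named genes well above background on all 8 arrays, Cdca8 ranked 6 by r with Birc5, Aurkc 311, Aurkb 551, Sgol1 598, Incenp 6437 and Rcc2 8112. Sgol2 was not ranked, being not well above background on 1 of them. The 5 genes most alike were Lpin1 (r = 0.97), a phosphatidate phosphatase, Tmem188 (r = 0.97), Ppp4r2 (r = 0.97), a regulatory subunit of a protein phosphatase, Nap1l3 (r = 0.97) and Sptlc2 (r = 0.97), a subunit of serine palmitoyltransferase. Their rho was 0.90 to 0.98, and r without the farthest arrays was 0.88 to 0.97. None is a mitotic gene of the lists used here, and their adjusted p-values over all genes were 0.0984 to 0.154 for r.

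Other genes of mitosis were examined on the same arrays, and 6 of those measured passed adjustment on slide 2, all lower. The list of kinases that recruit or act beside the complex also held B-type cyclins and a spindle assembly factor. Over both tissues 7 of its 10 genes were lower at an unadjusted p under 0.05, with a median of -0.78. Of these 2 passed adjustment, both cyclins. Over all genes 11.2% were lower at that level, 2.61% passed adjustment in either direction and the median was 0.04. The mitotic cyclin Ccnb2 fell by 1.32 on the log2 scale (SE 0.21, adjusted p = 0.039), and Ttk, the spindle checkpoint kinase Mps1, changed by -1.17 (SE 0.23, adjusted p = 0.055). The second gene that passed was Ccnb1, named after its value was seen, at -1.62 (SE 0.23, adjusted p = 0.034). As labelled 0 of 10 had an unadjusted p under 0.05, with a median of -0.42.

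Of 10 measured kinetochore and centromere proteins, on which the complex acts, 8 were lower at an unadjusted p under 0.05 on slide 2, with a median of -0.81, and 3 passed adjustment. Spc24, a subunit of the Ndc80 complex, fell by 1.42 (SE 0.25, adjusted p = 0.046). Its partner Spc25 changed by -0.75 (SE 0.17, adjusted p = 0.067). The others past the threshold, Ndc80 and the centromeric histone Cenpa, were named after their values were seen and changed by -1.05 and -1.29. As labelled 3 of 10 were lower at an unadjusted p under 0.05, against 1.55% of all genes, and 0 passed adjustment.

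Of 4 spindle checkpoint genes 3 were lower at that level on slide 2 (median -0.34) and 0 passed, Cdc20, the activator of the anaphase-promoting complex, changing by -0.78 (SE 0.19) and Bub3 by -0.22 (SE 0.09). Of 8 midzone and cytokinesis genes 6 were lower at that level (median -0.67) and 0 passed, with Anln, which organises the contractile ring, at -0.66 (SE 0.21) and Kif23 at -0.36 (SE 0.19). Of 7 genes of cohesion and mitotic chromatin 4 were lower at that level (median -0.33) and 1 passed, Top2a, which untangles sister DNA, at -0.77 (SE 0.09, adjusted p = 0.030). The proliferation marker Mki67 changed by -0.61 (SE 0.17). As labelled 0 genes of these 3 lists had an unadjusted p under 0.05.

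Of 5 transcription regulators of mitotic genes 1 was lower at that level, Foxm1 at -0.57 (SE 0.17, adjusted p = 0.12), and the list's median was 0.04. Lin54, a MuvB subunit, changed by -0.14 (SE 0.13). Of the 5 apoptosis partners of survivin reported here 0 had an unadjusted p under 0.05 with limma on slide 2 and 0 passed adjustment, with a median of -0.08. Xiap, which binds survivin, changed by -0.08 (SE 0.12) and Birc3, another member of the family of inhibitors of apoptosis, by -0.24 (SE 0.21).

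**Figure D5:**
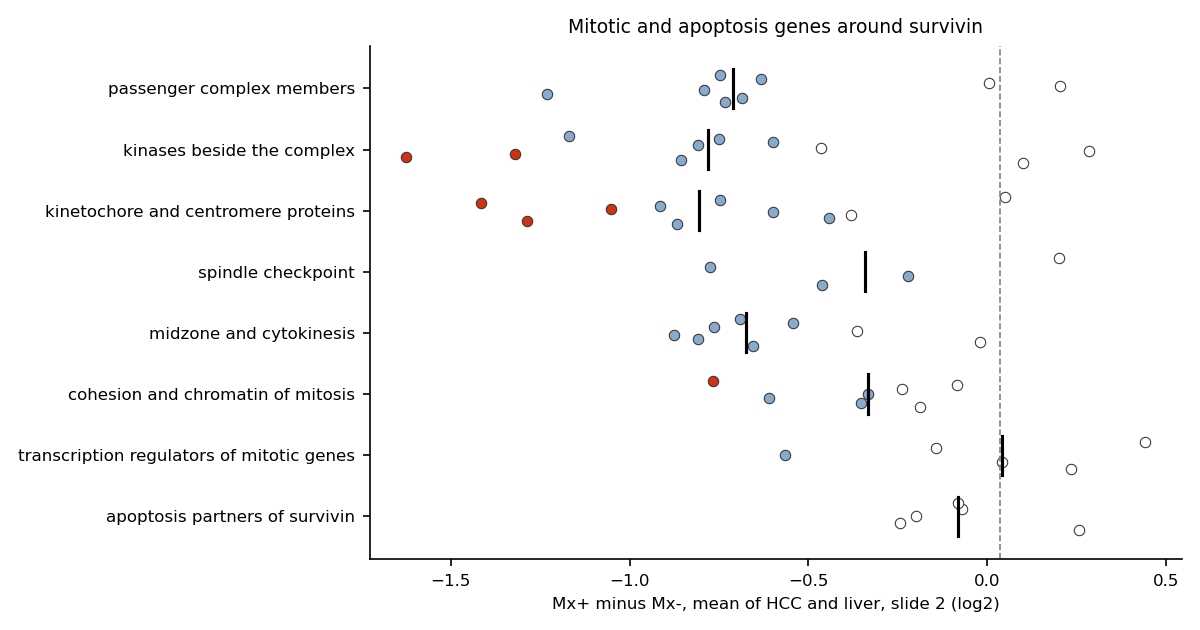
Change with deletion (mean of HCC and liver, log2, slide 2) of each gene in 8 lists; red points passed an adjusted p of 0.05, blue points an unadjusted p of 0.05, open points neither, bars mark list medians and the dashed line the median of all genes at 0.04. Medians lie at -0.71 for the complex, -0.81 for kinetochore proteins and -0.08 for the apoptosis partners reported here.

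Some markers of other cells also differed by genotype on slide 2. Over all genes there, 2.61% passed adjustment in either direction and 45.2% were lower over both tissues. B and plasma cell markers (4 of the 4 reported here, Cd79a, Cd79b, Ms4a1 and Igj) were higher in Mx+ arrays of slide 2, 2 of them after adjustment, with a median of 1.53. The log2 of their summed level was 0.22 to 0.26 in Mx-liver, 1.58 to 2.28 in Mx+liver, -0.72 to -0.12 in Mx-tumor and 0.93 to 1.92 in Mx+tumor. T and NK cell markers (5 of 5 higher, 1 after adjustment, median 1.06) summed to 1.20 to 1.44, 1.15 to 1.62, 0.65 to 0.92 and 1.91 to 3.03 in the same order, so that their genotypes were apart in HCC and overlapped in liver. Erythroid markers (4 of 4 lower, 0 after adjustment, median -0.53) summed to 6.37 to 6.41, 5.92 to 6.32, 6.05 to 6.17 and 6.27 to 6.30, the sum being lower with deletion in liver and higher in HCC. Hepatocyte markers (4 of 5 lower, 0 after adjustment, median -0.20) were well above background on every array of slide 2. They summed to 8.01 to 8.18 in Mx-liver, 7.62 to 7.73 in Mx+liver, 8.01 to 8.04 in Mx-tumor and 8.01 to 8.13 in Mx+tumor, apart in liver and overlapping in HCC. Macrophage markers (0 of 5 called, median 0.21) summed to 4.65 to 4.87, 4.51 to 4.81, 3.74 to 4.12 and 4.53 to 4.77 in the same order, apart in HCC and overlapping in liver. Granulocyte precursor markers (0 of 7 called, median 0.08) had sums of 3.53 to 5.29 that overlapped between genotypes in both tissues. Bile duct markers (0 of 5 called, median 0.28) summed to 4.04 to 4.31, 3.65 to 3.72, 4.44 to 4.94 and 2.36 to 4.94, apart in liver and overlapping in HCC. Over the 8 arrays of slide 2 the mean log2 level of the markers had an r with Birc5 of -0.91 for B and plasma cells, a size like that of Cdca8 and Sgol2, and of -0.42 for T and NK cells, -0.29 for macrophages, -0.18 for bile duct, -0.05 for granulocyte precursors, 0.11 for erythroid cells and 0.43 for hepatocytes. These values hold the genotype difference too and are a description with no test. Slide 1, with 1 array a group, did not repeat the B and plasma cell difference. Its sums were 1.37 in Mx-liver, 0.72 in Mx+liver, 1.11 in Mx-tumor and 0.42 in Mx+tumor. They were lower in Mx+ in both tissues, as labelled and with the arrays in doubt exchanged. For T and NK cells the slide 1 sums were 2.83, 3.22, 2.07 and 1.95 in that order, Mx+tumor being the lowest. The part of these cells in the changes of Birc5 and its partners was not tested.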

How the data were processed

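The starting data were processed spot intensity values as deposited by the authors, for which the submitters' processing notes list Agilent Feature Extraction 10.7. Each of 12 arrays held 55681 probes with positions on mm9. The value table holds log2 values deposited by the authors with the 75th percentile of each array at 0 and column medians of -3.27 to -2.52. Its direction and scale follow the scanner intensity, and it served as an alternative. The number of arrays limits the precision.

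From the scanner values, unflagged spots of a probe were averaged on the log2 scale and the array's 75th percentile over non-control probes was subtracted. A probe was kept if at least 1 group had it well above background on all its arrays (39138 probes, 26507 genes). Changes were fitted with limma 3.58.1 in R 4.3.3 on 4 group means, with Benjamini-Hochberg adjustment at 0.05 over all kept probes. The deletion contrast over both tissues is the mean of the contrasts in HCC and liver. Slide 2 fits used 2 arrays a group. The fit was checked on simulated data. Exact permutation tests, two-sided, moved genotype labels within tissue and slide or used all pairings of 8 arrays (Python 3.11.15, scipy 1.17.1).

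The members, gene lists and tests were chosen with earlier results of these data known. Of the apoptosis list and of the B and plasma cell list, 1 gene each is not reported here and enters no count, median or sum of its list. Named beyond the members were up to 2 genes a list of smallest unadjusted p in the deletion contrast over both tissues as labelled and the 5 genes with the highest r with Birc5, plus genes said to be named after their values were seen. Alternatives were quantile normalization, normexp background with an offset of 50, other filters, the mean of a gene's probes, slide or replicate as a block, fewer groups, the value table, the 2 arrays in doubt exchanged or left out, and each array left out in turn. Replicate numbers pair arrays through the slide. Over 18 same-numbered pairs the correlations of deviations from group means were 0.297 to 0.729, and within slide 2 they were -0.0815 to 0.283 over 6 pairs.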

Additional observations from a re-analysis of the deposited data

Results flagged for a closer look

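The second Aurkc probe, left out by the filter, was well above background on 3 of 6 Mx+ arrays and 0 of 6 Mx- arrays as labelled, a signal outside the main measurement that did not rise well above background where survivin was intact. With the 2 arrays in doubt exchanged the counts were 2 and 1. Readings on Mx+ arrays were -4.98, -5.77 and -6.52 in liver and -5.49, -6.30 and -7.40 in HCC. On Mx- arrays they were -5.41, -7.16 and -7.43 in liver and -5.26, -7.39 and -7.74 in HCC, all not well above background. The split does not follow the level. Mx+ readings of -5.49 and -5.77 were well above background, while the higher Mx- readings of -5.26 and -5.41 on slide 1 were not. How many of all dim probes show such a split was not counted. The kept Aurkc probe was lower, not higher, in Mx+ arrays of slide 2.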

How the results depend on the processing

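Birc5 at the downstream probe kept a negative change over both tissues under every alternative run, and with each array left out it ranged from -1.52 to -0.65. The signs between tissues were less stable. In Mx- the HCC against liver difference of Birc5, -0.25 as labelled, became 0.66 on slide 2, 0.29 with the value table, 0.29 with the arrays exchanged (0.29 with slide as a block too) and 0.29 without both arrays and with slide as a block, and -0.68 to 0.49 with each array left out. In Mx+ it was -0.37 as labelled, then 0.63, 0.18, 0.17, 0.17 and 0.26 in this order, 0.63 without both arrays, and -1.11 to 0.63 with each array left out. Fits with arrays left out and no slide block do not match the groups over the slides, and this Birc5 probe was 1.19 higher on slide 1. That shift therefore enters their values. The cause of the sign changes was not tested.

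Counts of called probes for deletion over both tissues were 0 as labelled, 1298 on slide 2, 2 with the value table, 2 exchanged, 33 exchanged with slide as a block, 2 without the 2 arrays in doubt and 235 without them with slide as a block, a fit chosen after seeing the data. In HCC they were 0, 18 on slide 2 and 1 without both arrays with slide as a block. In liver they were 0 and 1 on slide 2, and 0 to 1 with each array left out. The replicate block called 0 probes over both tissues and changed no call.

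Uncalled partner changes changed sign as follows. Aurkb in HCC was -0.43 on slide 2, -0.12 without both arrays and -0.12 with slide as a block too (-0.12 to 1.97 with each array left out), and over both tissues 0.00501 with normexp (-0.82 to 0.24). Incenp in liver was 0.00120 with quantile normalization and 0.054 with normexp (-0.65 to 0.57), in HCC -0.081 to 0.84 and over both tissues -0.17 to 0.45 with each array left out. Rcc2 in HCC was 0.54 without both arrays (-0.67 to 0.54). In liver it was 0.10 with quantile normalization, 0.086 on slide 2 and 0.048 without both arrays with slide as a block (-0.60 to 0.66), and over both tissues 0.041 with quantile normalization and 0.0053 on slide 2 (-0.35 to 0.30). With each array left out, Aurkc in liver was -0.51 to 0.11, Sgol1 in HCC -0.50 to 0.011 and Sgol2 in HCC -0.35 to 0.053. Fits with arrays left out and no slide block do not match the groups over the slides, so shifts between slides enter these values. Such shifts were 1.85 for Rcc2 and 1.61 for Incenp, higher on slide 1. With slide as a block, Rcc2 in HCC without both arrays did not change sign.

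Birc5 minus partner lost its threshold on slide 2 at -1.44 for Incenp, -0.44 for Cdca8, -0.48 for Sgol2 and -1.24 for Rcc2. With each array left out it was -1.50 to -0.89 for Incenp, -0.57 to -0.23 for Cdca8, -0.92 to -0.39 for Sgol2, -1.35 to -0.67 for Rcc2, -1.06 to -0.21 for Aurkc, -1.19 to -0.26 for Sgol1 and -1.76 to -0.28 for Aurkb. Correlations of Aurkb fell to 0.71 with the upstream Birc5 probe, 0.52 without the farthest arrays, 0.18 for group deviations and -0.012 over 12 arrays, and were 0.68 to 0.92 with each array left out. Those of Aurkc were 0.65, 0.24 and 0.49 (0.69 to 0.88), and of Sgol1 0.84, -0.19 and 0.29 (0.73 to 0.87), without the farthest arrays, for deviations and over 12 arrays. Cdca8 gave 0.84 and Sgol2 0.84 for deviations. Incenp gave -0.37 without the farthest arrays, 0.58 for deviations, and -0.22 and -0.15 with the upstream and middle Birc5 probes (-0.25 to 0.19). Rcc2 gave 0.066 without the farthest arrays, -0.16 for deviations and 0.14 over 12 arrays (-0.32 to 0.19). The low signal over background on Mx-liver replicate 1 limits the dim genes Aurkb, Aurkc and Sgol2.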

Other observations

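Levels of 4 of the 13 member probes did not overlap between the slides, against 35.4% of 38718 probes read on all arrays. Rcc2 was higher on slide 1 by 1.85 on the log2 scale and its second probe by 0.40. The overlapping Incenp probes differed between slides in opposite directions, by 1.61 and -1.45. The median shift over all probes was 0.36.

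On slide 1, with 1 array a group and no test, the Birc5 difference between Mx+ and Mx- at the downstream probe was -0.74 in HCC and -0.43 in liver as labelled, and -2.36 and -2.05 with the 2 arrays exchanged. For Sgol2 in HCC it was 0.59 as labelled and -0.68 exchanged. The Sgol2 differences in liver and those of Aurkb in both tissues use at least 1 reading that was not well above background and are not given.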
